A study of Danio rerio with 14 samples.

Results

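Genes of MHC class I and II, of interferon signalling and of the STAT pathway were followed through the ventricle transcriptomes of adult zebrafish. They were taken by symbol: every row whose name begins with mhc, b2m, tap1, tap2, tapbp, irf, stat, ifi, isg or socs (irf and stat with a digit), the mx genes mxa to mxg, and rsad2, dhx58, ddx58 and mavs. This gave 95 of the 39289 rows in the table, with 94 distinct symbols because socs5a has 2 rows. Of the 95 genes, 69 had enough reads to be tested for differences and 26 did not. A few genes match by name only, among them isg20l2, ifitm5 and the 4 IRF2-binding proteins, and they are counted here without being called part of an interferon response.

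MHC class I molecules carry peptides to the cell surface, where T cells inspect them. The heavy chain pairs with beta-2-microglobulin and is loaded with peptide by the TAP transporter and tapasin. Interferons, made after RNA sensors of the RIG-I family signal through MAVS, act through JAK kinases, STAT proteins and interferon regulatory factors (IRFs) to switch on a set of interferon-stimulated genes, class I genes among them, and SOCS proteins restrain that signalling. Zebrafish class I genes fall into U, Z and L lineages, and which of them a fish carries differs between haplotypes, so that a gene can be missing from a library because the fish lack it.

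The fish came from lines in which the heart-specific myl7 promoter drives eGFP-tagged human TMEM43, a protein of the nuclear envelope, in cardiomyocytes, inserted with the Tol2 transposon system. TMEM43-P111L (3 libraries) and TMEM43-S358L (4 libraries) carry variants of the protein reported in arrhythmogenic cardiomyopathy, TMEM43-WT (4 libraries) carries the unchanged human protein, and NTG (3 libraries) are non-transgenic fish whose genotype label is wild-type. The strain label is TL1 for all of them, none was treated, and each library pooled ventricles of several fish. The transgenic fish were progeny of F2 incrosses, and each genotype is 1 transgenic line, so the variant cannot be told apart from the insertion and the founder's background. By the labels the fish were 5 months old in 1 of 3 TMEM43-P111L, 3 of 4 TMEM43-S358L, 1 of 4 TMEM43-WT and 2 of 3 NTG libraries, and 18 to 21 months old in the others. The study's text describes only the younger age for its sequencing, which conflicts with the labels of the older libraries. Ages here follow the labels, and the comparison by age rests on them.

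Depth was 21090537 to 32418475 reads in TMEM43-P111L, 24508198 to 25576803 in TMEM43-S358L, 20977823 to 22326903 in TMEM43-WT and 20621770 to 25573261 in NTG. Levels are given in CPM, the usual count of a gene's reads relative to the total of its library, here after TMM scaling of the totals. Cardiomyocyte markers (9 genes) summed to 62600 to 73900 CPM in TMEM43-P111L, 67500 to 87300 in TMEM43-S358L, 59100 to 79500 in TMEM43-WT and 70400 to 81600 in NTG, while the 3 B cell markers found stayed under 0.8 CPM in sum. In bulk tissue, fewer cells of a type and less RNA per cell cannot be told apart. Nothing states that the pools of a group came from separate broods, so p-values measure the spread between these libraries.

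Fold changes are log2 values with a standard error from edgeR's quasi-likelihood test. Called genes had a Benjamini-Hochberg adjusted p under 0.05 over all 17437 tested genes and a log2 fold change of 0.05 or more in size. Shares of all genes called are those of edgeR throughout. Counts by DESeq2 are given without such a share, so they cannot be compared with a background.

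Few of the 69 tested genes differed between genotypes. Relative to NTG, 3 rose and 3 fell in TMEM43-P111L, where 3.34% of all tested genes rose, 4.25% fell and 7.59% were called in either direction. In TMEM43-S358L 3 fell and 0 rose, against 3.48%, 2.68% and 6.15% of all genes that fell, rose or were called. In TMEM43-WT 5 fell and 0 rose, against 4.24%, 4.09% and 8.34%. The shares of tested members called, 8.7% in TMEM43-P111L, 4.35% in TMEM43-S358L and 7.25% in TMEM43-WT, were near those backgrounds. For the counts of 0 that rose, an unadjusted p under 0.05 was reached by 5 genes in TMEM43-S358L and 4 in TMEM43-WT, and DESeq2 called 1 in each, isg20 and socs7. The median log2 fold change of the members was 0.05 in TMEM43-P111L, -0.10 in TMEM43-S358L and -0.23 in TMEM43-WT, beside 0.0, 0.0 and -0.01 over all tested genes. All 3 comparisons share the same 3 NTG libraries.

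Between the transgenic lines 1 member differed, the class I gene mhc1lda, which fell in TMEM43-P111L and in TMEM43-S358L relative to TMEM43-WT. It had enough reads to be tested only through TMEM43-WT, the group where it was high (69, 39, 42 and 56 reads). Its calls are thus no independent support for a difference. The shares of all genes that fell in these comparisons were 0.562% and 0.958%. Between TMEM43-P111L and TMEM43-S358L edgeR called 0 members, with 6 at an unadjusted p under 0.05 and 0 called by DESeq2, where 1.04% of all genes were called. The heatmap of the tested members shows how much single libraries differ within each genotype.

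**Figure D1:**
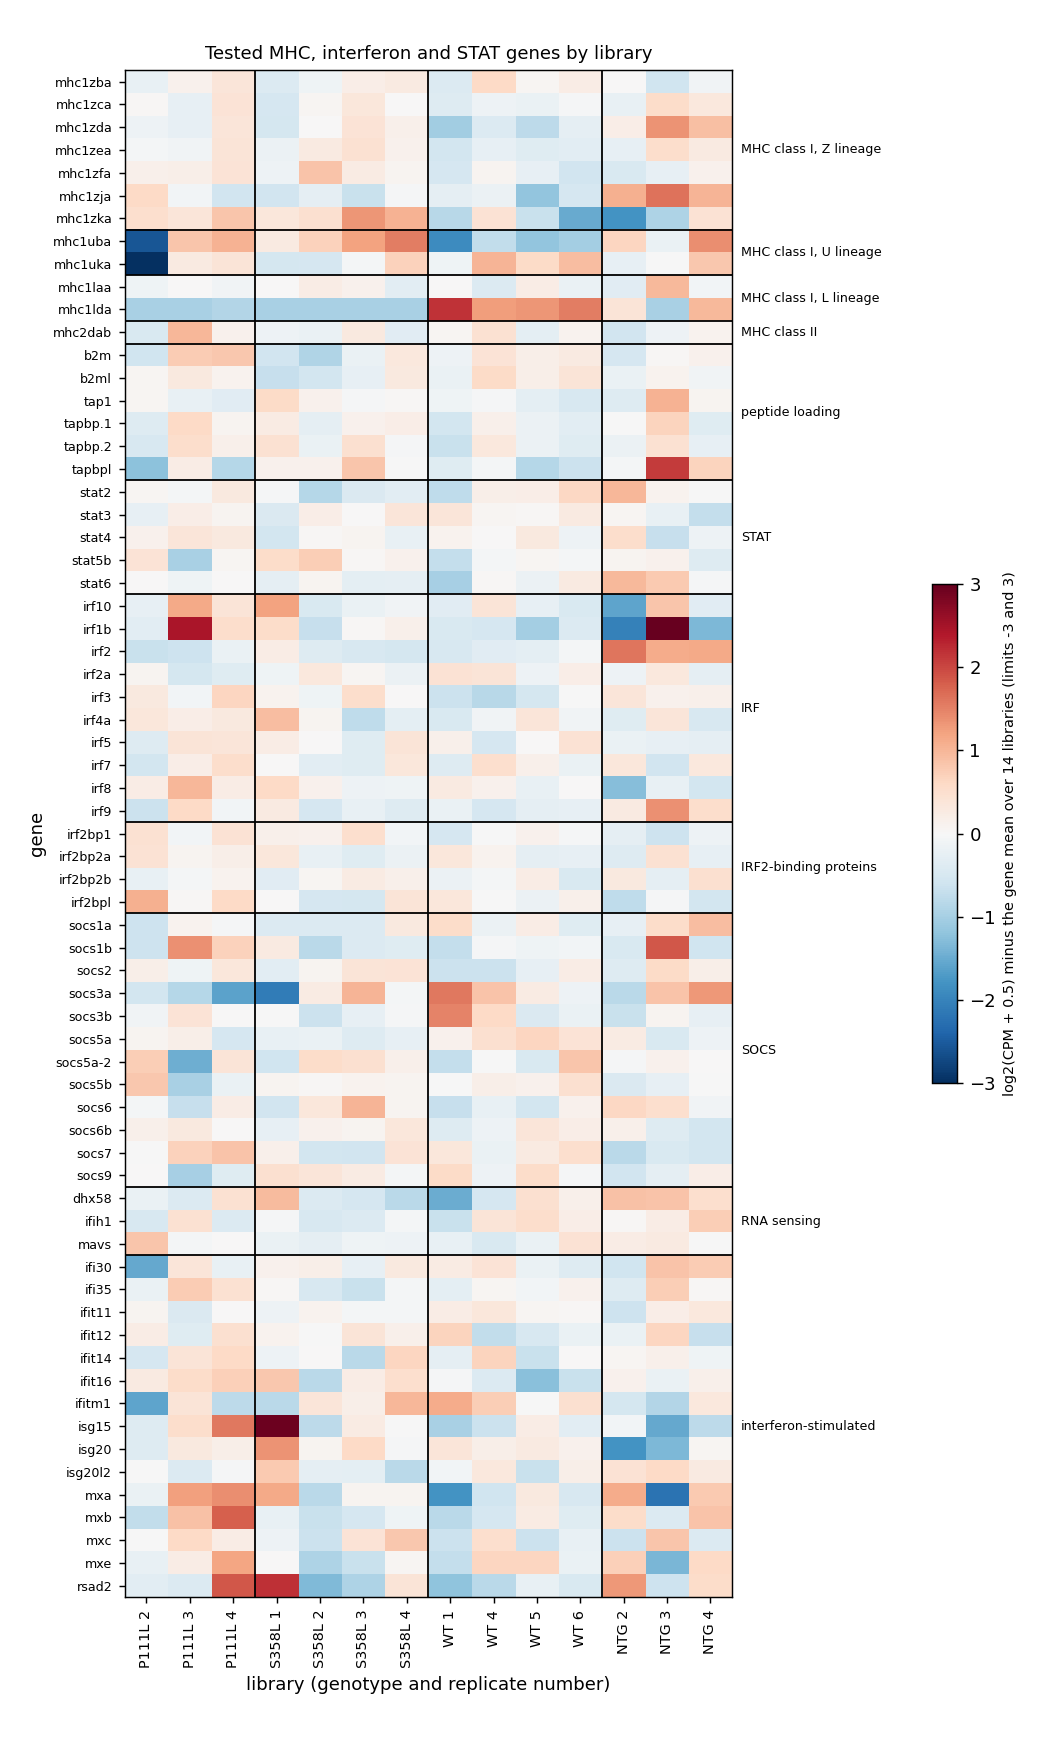
Each row is 1 of 67 of the 69 tested genes, grouped by role, and each column 1 of 14 libraries. Colour gives log2(CPM + 0.5) minus the gene's mean over the libraries, limited to -3 and 3. Blocks that stand out are irf2 (high in all 3 NTG libraries), mhc1lda (high in the 4 TMEM43-WT libraries), irf1b in NTG replicate 3 and isg15 in TMEM43-S358L replicate 1.

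How many members a library held varied little. At 1 CPM or more, 51 to 59 of the 95 genes were present per library, with a median of 56, and 42 were present in all 14 libraries, 26 in some and 27 in none. At 0.1 CPM the median was 72.5. Among the 26 genes that were not tested, the highest level in any library was 1.1 CPM (ifit8 in TMEM43-P111L replicate 4), 11 were MHC genes and 4 had no read after rounding. In 40 members the reads were fractional in at least 1 library, all 7 Z genes and the tested U genes among them, so reads of near-identical copies may have been split and the levels of single class I genes are uncertain to that extent.

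The most highly expressed member per kilobase of exon was b2m, the beta-2-microglobulin light chain, at 520 CPM per kilobase over all libraries. Its paralog b2ml followed with 102, socs3a with 101 and the Z gene mhc1zba with 98.6 CPM per kilobase. Of the STATs, stat4 (28.3) and stat3 (10.3) stood highest on the same scale, and mavs, the adaptor of RNA sensing, had 4.27. The classical-lineage gene mhc1uka reached 27.9 CPM per kilobase and the class II beta gene mhc2dab 21.4, and the other class II rows, mhc2dbb and mhc2dcb, had at most 0.234 CPM in any library.

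The clearest on-and-off pattern belonged to mhc1lda, an L-lineage class I gene on chromosome 25 (GRCz11, 10954770 to 10961324, plus strand). It had 0, 0 and 0.0288 CPM in TMEM43-P111L and 0 in all 4 TMEM43-S358L libraries, against 3.92, 1.83, 1.93 and 2.35 CPM in TMEM43-WT and 0.778, 0 and 1.42 CPM in NTG. The transgenic lines with a variant thus held 1 read among 7 libraries, TMEM43-WT held 206, and the NTG libraries did not behave alike, with 17, 0 and 34 reads. Its reads were fractional in 6 libraries before rounding. With a floor of 3 reads per library, TMEM43-S358L was at least 18.7-fold lower than TMEM43-WT and at least 5.46-fold lower than NTG. The level in TMEM43-P111L was 0.00511 of that in TMEM43-WT (95% counting interval 0.000129 to 0.0288) and 0.0164 of that in NTG (0.000408 to 0.0958).

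The edgeR test called mhc1lda in TMEM43-P111L against TMEM43-WT (adjusted p = 0.0186), TMEM43-S358L against TMEM43-WT (0.0058), TMEM43-P111L against NTG (0.0292) and TMEM43-S358L against NTG (0.0143). Its fitted log2 fold changes of -7.17, -8.89, -5.42 and -7.14, in the same order, depend on the prior count and are no bounds. The gene was tested only through its reads in TMEM43-WT, the group where it was high. TMEM43-WT did not differ from NTG past the threshold (log2 fold change 1.75 ± 0.825, edgeR adjusted p = 0.209). The TMEM43-P111L calls were lost without any of its 3 libraries (edgeR adjusted p 0.0895 to 0.0976 against NTG and 0.0788 to 0.142 against TMEM43-WT), and the call against NTG also without NTG replicate 2 (0.0582) or 4 (0.0716). The TMEM43-S358L calls held without each library in turn, but among 5-month libraries alone the call against NTG was lost (0.295).

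Neighbours on chromosome 25 were present in the same libraries. LOC108181672 (10883689 to 10907710) had 0.0793, 0.0492 and 0.0577 CPM in TMEM43-P111L and 0.165, 0, 0.0896 and 0.0389 CPM in TMEM43-S358L, against 40.7, 25.9, 52.7 and 40.9 CPM in TMEM43-WT and 28.9, 0 and 18.8 CPM in NTG. The gene si:ch211-147g22.4 (10843986 to 10855218) had 0 CPM in every TMEM43-P111L library and at most 0.0778 CPM in TMEM43-S358L, against 2.06 to 4.78 CPM in TMEM43-WT and 3.02, 0 and 2.51 CPM in NTG. NTG replicate 3 thus had 0 CPM of all 3 genes. Within 500 kb on either side of mhc1lda, 16 neighbours were tested. Of all tested genes, 7.59% were called in TMEM43-P111L and 6.15% in TMEM43-S358L against NTG, and 0.562% and 0.958% fell against TMEM43-WT. LOC108181672 and si:ch211-147g22.4 were among the 2 to 3 neighbours called in each of the 4 comparisons that called mhc1lda. Like mhc1lda, both had enough reads to be tested only through TMEM43-WT, the group where they were high. Their calls are thus no independent support for a difference. Their reads were fractional in 7 libraries for LOC108181672 and 8 for si:ch211-147g22.4. Whether the fish of a pool carried this stretch or did not transcribe it cannot be told apart from these values. The other L genes of the chromosome, mhc1lea, mhc1lfa, mhc1lga, mhc1lia, mhc1lja and mhc1lla, stayed under 0.6 CPM in every library.

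**Figure D2:**
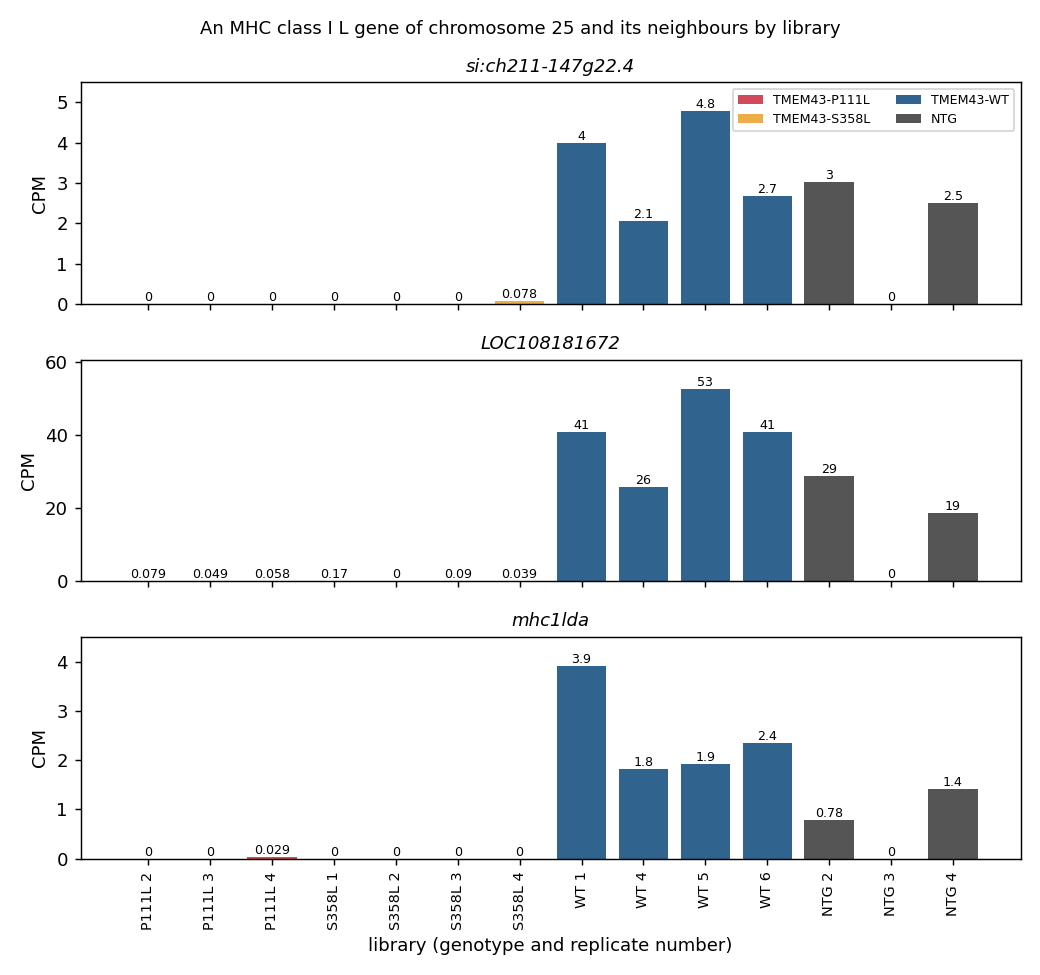
Bars give the CPM of mhc1lda and of its neighbours si:ch211-147g22.4 and LOC108181672 in each of 14 libraries, coloured by genotype, with the value above each bar and a linear axis from 0. The 4 TMEM43-WT libraries and NTG replicates 2 and 4 hold all 3 genes, and the TMEM43-P111L and TMEM43-S358L libraries and NTG replicate 3 hold at most 0.165 CPM of any.

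The U lineage, which holds the classical peptide-presenting genes of zebrafish, was represented by mhc1uba and mhc1uka, which lie near each other on chromosome 19 (7072854 to 7101100 and 7043620 to 7051403). The level of mhc1uba was 3.13, 37.6 and 43.7 CPM in TMEM43-P111L, 25.5, 34.1, 49.5 and 62.3 CPM in TMEM43-S358L, 5.28, 12.4, 8.97 and 10.1 CPM in TMEM43-WT, and 33.2, 18.2 and 56.4 CPM in NTG. That of mhc1uka was 3.25, 41.4 and 44.7 CPM in TMEM43-P111L, 23.5, 24.0, 32.9 and 55.2 CPM in TMEM43-S358L, 31.5, 70.0, 51.3 and 65.6 CPM in TMEM43-WT, and 29.0, 34.1 and 60.3 CPM in NTG. TMEM43-WT was thus low for the first gene and not for the second, and TMEM43-P111L replicate 2 was low for both.

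Of the reads on both U genes, mhc1uba took 47.6 to 49.4% in TMEM43-P111L and 52.0 to 60.0% in TMEM43-S358L, against 13.4 to 15.0% in TMEM43-WT and 34.8 to 53.4% in NTG. The 95% Wilson intervals, which cover counting error only, ended at 17.3% at most in TMEM43-WT and began at 32.1% at least in the other 10 libraries. Tested as a level, mhc1uba did not pass the threshold in edgeR, with a log2 fold change of 2.22 ± 0.632 in TMEM43-S358L against TMEM43-WT (adjusted p = 0.12) and -1.96 ± 0.657 in TMEM43-WT against NTG (adjusted p = 0.0834), although neither pair of groups overlapped. DESeq2 called both differences (adjusted p = 0.0203 and 0.04). This gene was singled out after its values were seen.

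Of 7 tested immunoproteasome genes, edgeR called 1 lower in TMEM43-S358L against TMEM43-WT, psmb12, which lies near the U genes. Of all tested genes, 0.958% fell in that comparison. For psmb12, TMEM43-WT was the group that stood above the others. This subunit gene (chromosome 19, 7115238 to 7119451) had 3.49, 11.7 and 6.78 CPM in TMEM43-P111L, 5.52, 2.08, 1.48 and 5.8 CPM in TMEM43-S358L, 16.0, 19.9, 15.3 and 14.0 CPM in TMEM43-WT, and 3.02, 8.56 and 6.36 CPM in NTG. The log2 fold change of TMEM43-S358L against TMEM43-WT was -2.13 ± 0.459 (edgeR, adjusted p = 0.03), and that of TMEM43-P111L against TMEM43-WT, -1.16 ± 0.487, did not pass (0.416). Against NTG, TMEM43-S358L overlapped (-0.68 ± 0.481, 0.433), and TMEM43-WT did not overlap but was called by DESeq2 alone (edgeR log2 fold change 1.45 ± 0.494, adjusted p = 0.0821). For psmb8a, the levels were 7.22, 20.2 and 17.4 CPM in TMEM43-P111L, 14.2, 3.87, 4.08 and 14.4 CPM in TMEM43-S358L, 54.8, 56.5, 34.3 and 35.1 CPM in TMEM43-WT, and 10.8, 51.8 and 29.6 CPM in NTG. Both variant lines lay below TMEM43-WT without overlap for psmb8a, with edgeR adjusted p of 0.318 for TMEM43-P111L and 0.0547 for TMEM43-S358L, and NTG overlapped with all 3 lines. Against NTG, TMEM43-S358L was at -1.75 ± 0.566 on the log2 scale (edgeR, adjusted p = 0.0829). DESeq2 called psmb8a in TMEM43-S358L against both TMEM43-WT and NTG, and psmb10 and psmb12 in TMEM43-S358L against TMEM43-WT. The part of gene content at this locus in these values was not tested.

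**Figure D3:**
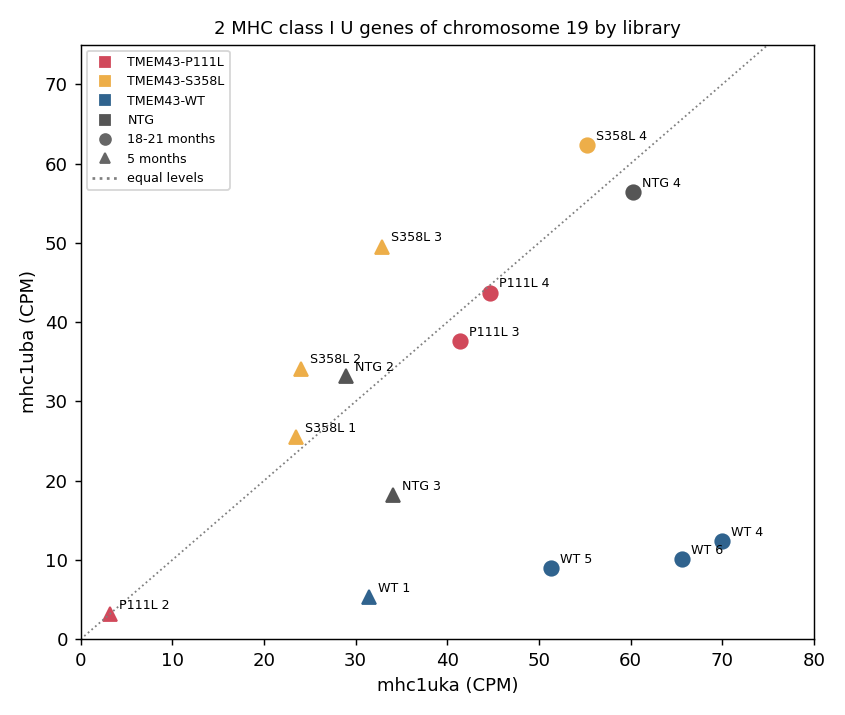
Each point is 1 library, with mhc1uka on the x axis and mhc1uba on the y axis, both in CPM, coloured by genotype and shaped by age. The 4 TMEM43-WT libraries lie far below the dotted line of equal levels, at 5.28 to 12.4 CPM of mhc1uba, while TMEM43-P111L, TMEM43-S358L and 2 of 3 NTG libraries lie near or above it.

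Of the 7 Z genes, a lineage conserved across ray-finned fish, mhc1zda and mhc1zja fell in TMEM43-WT against NTG. In TMEM43-S358L mhc1zja alone fell, and in TMEM43-P111L 0 were called, with 2 at an unadjusted p under 0.05 in edgeR. Of all tested genes, 4.24% fell in TMEM43-WT, 3.48% in TMEM43-S358L and 4.25% in TMEM43-P111L. The gene mhc1zda (chromosome 1, 47124621 to 47135220) had 15.1, 14.0 and 21.6 CPM in TMEM43-P111L, 11.4, 16.9, 22.3 and 18.7 CPM in TMEM43-S358L, 7.9, 12.5, 9.52 and 13.8 CPM in TMEM43-WT, and 19.4, 43.3 and 31.6 CPM in NTG. TMEM43-WT did not overlap with NTG and fell by 1.52 ± 0.288 on the log2 scale (edgeR, adjusted p = 0.00597), a call that held without each library in turn. The log2 fold changes of -0.89 in TMEM43-P111L (adjusted p = 0.0888) and -0.86 in TMEM43-S358L (adjusted p = 0.0823) did not pass in edgeR. The next Z genes of the cluster, mhc1zca, mhc1zea and the abundant mhc1zba, were not called in any comparison.

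The low-level gene mhc1zja (chromosome 3, 376463 to 402940) had 1.55, 0.787 and 0.404 CPM in TMEM43-P111L, 0.412, 0.632, 0.358 and 0.817 CPM in TMEM43-S358L, 0.625, 0.704, 0.092 and 0.461 CPM in TMEM43-WT, and 2.34, 3.68 and 2.26 CPM in NTG. All 3 NTG libraries stood above the 11 others. It fell by 2.29 ± 0.56 on the log2 scale in TMEM43-S358L (edgeR, adjusted p = 0.025) and by 2.55 ± 0.573 in TMEM43-WT (0.0138), and was at -1.60 ± 0.597 in TMEM43-P111L (0.112). Without NTG replicate 3 the edgeR adjusted p was 0.0899 in TMEM43-S358L and 0.0518 in TMEM43-WT, and without TMEM43-S358L replicate 1, 2 or 3 it was 0.0528, 0.0519 or 0.0716 in TMEM43-S358L. Among 5-month libraries alone it was 0.0821 in TMEM43-S358L. Of 16 tested neighbours within 500 kb, 3 were called in TMEM43-P111L, 5 in TMEM43-S358L and 6 in TMEM43-WT against NTG. In the same order, 7.59%, 6.15% and 8.34% of all tested genes were called. The Z gene mhc1zka on an unplaced scaffold ranged from 0.687 CPM in NTG replicate 2 to 9.81 CPM in TMEM43-S358L replicate 3 and was called in no comparison.

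Of the 6 genes of peptide loading, tapbpl fell in TMEM43-P111L and TMEM43-WT against NTG, where 4.25% and 4.24% of all tested genes fell. Its product is the tapasin-related peptide editor known as TAPBPR in mammals. It had 1.82, 5.85 and 2.51 CPM in TMEM43-P111L, 5.52, 5.51, 9.28 and 4.9 CPM in TMEM43-S358L, 3.75, 4.74, 2.53 and 2.98 CPM in TMEM43-WT, and 4.76, 22.9 and 8.16 CPM in NTG. The high NTG mean came from replicate 3. TMEM43-P111L fell by 1.82 ± 0.529 on the log2 scale (edgeR, adjusted p = 0.0479) and TMEM43-WT by 1.77 ± 0.482 (0.0347), while TMEM43-S358L was at -0.92 ± 0.473 (0.263). Without NTG replicate 3 the log2 fold changes were -0.94 in TMEM43-P111L (edgeR, adjusted p = 0.284) and -0.88 in TMEM43-WT (0.268). The TMEM43-P111L call was also lost without any of 9 other libraries (adjusted p at most 0.158), and the TMEM43-WT call without TMEM43-WT replicate 1, 5 or 6 (at most 0.0958). Both calls were lost with age group as a covariate, at edgeR adjusted p of 0.0864 in TMEM43-P111L and 0.0669 in TMEM43-WT, and with only the groups compared in the fit (0.168 and 0.055). The light chain b2m, its paralog b2ml, the transporter gene tap1 and the tapasin genes tapbp.1 and tapbp.2 were not called against NTG or between lines.

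Of the class II genes, mhc2dab, encoding a beta chain, was the only one tested. It stood highest in TMEM43-P111L replicate 3, at 31.4 CPM, and had 10.2 to 21.3 CPM in the other 13 libraries, with 10.2, 13.8 and 16.6 CPM in NTG. The groups overlapped, and edgeR called 0 of the 7 chaperone and peptidase genes tested beside it, where 6.15 to 8.34% of all tested genes were called against NTG. Of those 7, 3 in TMEM43-P111L, 2 in TMEM43-S358L and 4 in TMEM43-WT reached an unadjusted p below 0.05 against NTG, and DESeq2 called 1 (ctsla), 0 and 2 (cd74b and ctss2.1).

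Among regulators of MHC genes that the symbol rule did not take, nlrc5, the activator of class I genes in mammals, fell in all 3 lines. It had 2.46, 4.23 and 6.87 CPM in TMEM43-P111L, 4.36, 4.13, 3.72 and 6.11 CPM in TMEM43-S358L, 3.69, 4.46, 4.83 and 4.57 CPM in TMEM43-WT, and 13.1, 15.0 and 9.2 CPM in NTG. The log2 fold changes were -1.45 ± 0.337 in TMEM43-P111L (edgeR, adjusted p = 0.0171), -1.44 ± 0.308 in TMEM43-S358L (0.0135) and -1.50 ± 0.309 in TMEM43-WT (0.00917). Of the 12 transactivator genes on that list, 1 was called lower in TMEM43-P111L, 2 in TMEM43-S358L and 2 in TMEM43-WT, and 0 higher. Of all tested genes, 4.25%, 3.48% and 4.24% fell and 3.34%, 2.68% and 4.09% rose in that order of lines. The median log2 fold changes of the 12 transactivator genes were -0.33, -0.48 and -0.36 in the same order, beside 0.0, 0.0 and -0.01 over all tested genes. Of 10 partners in peptide loading and trimming, 1 rose in TMEM43-P111L (tpp2, 0.78 ± 0.227, edgeR adjusted p = 0.0473). In TMEM43-S358L 0 were called (2 at an unadjusted p under 0.05, 0 by DESeq2). The level of tpp2 was also higher there (log2 fold change 0.62 ± 0.214, edgeR adjusted p = 0.0936) and in TMEM43-WT (0.68 ± 0.215, 0.0593). In TMEM43-WT 2 fell (erap1a by 1.31 ± 0.254 and erap2 by 0.67 ± 0.198, log2). The shares of all tested genes given for the transactivators are the background for these 10 partners too. Both erap genes encode aminopeptidases that trim peptides for class I. Between lines, erap1a was also called higher in TMEM43-S358L than in TMEM43-WT (log2 fold change 1.2 ± 0.239, edgeR adjusted p = 0.0157). The share of all genes that rose in that comparison is not given here. Reads of erap1a were fractional in 13 of 14 libraries.

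The gene irf2 was lower in all 3 lines than in NTG. In mammals IRF2 occupies the same DNA elements as IRF1 and mostly opposes it. The gene (chromosome 14, 4084492 to 4121012) had 8.8, 9.14 and 12.5 CPM in TMEM43-P111L, 16.9, 10.8, 10.1 and 9.77 CPM in TMEM43-S358L, 10.2, 11.3, 11.7 and 13.9 CPM in TMEM43-WT, and 44.7, 31.7 and 32.3 CPM in NTG. No transgenic library reached the lowest NTG library. It fell by 1.83 ± 0.251 on the log2 scale in TMEM43-P111L (edgeR, adjusted p = 0.00119), by 1.61 ± 0.227 in TMEM43-S358L (0.000965) and by 1.62 ± 0.228 in TMEM43-WT (0.00101), and each call held without each of the 14 libraries.

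The lower level of irf2 was seen at both ages, though NTG and TMEM43-S358L have 1 library each at 18 to 21 months. Among 5-month libraries alone the TMEM43-S358L call was lost, and with a block for the replicate number the TMEM43-WT call. At 18 to 21 months it had 9.14 and 12.5 CPM in TMEM43-P111L, 9.77 CPM in TMEM43-S358L and 11.3 to 13.9 CPM in TMEM43-WT, against 32.3 CPM in the NTG library of that age, and at 5 months every transgenic library was at or under 16.9 CPM, against 44.7 and 31.7 CPM in NTG. Its reads were whole in every library. Of 10 tested genes within 500 kb, 0 were called in TMEM43-P111L, 0 in TMEM43-S358L and 3 in TMEM43-WT against NTG. In the same order, 7.59%, 6.15% and 8.34% of all tested genes were called. The irf2 paralog irf2a had 5.06 to 10.3 CPM over the 14 libraries and was called in no comparison.

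**Figure D4:**
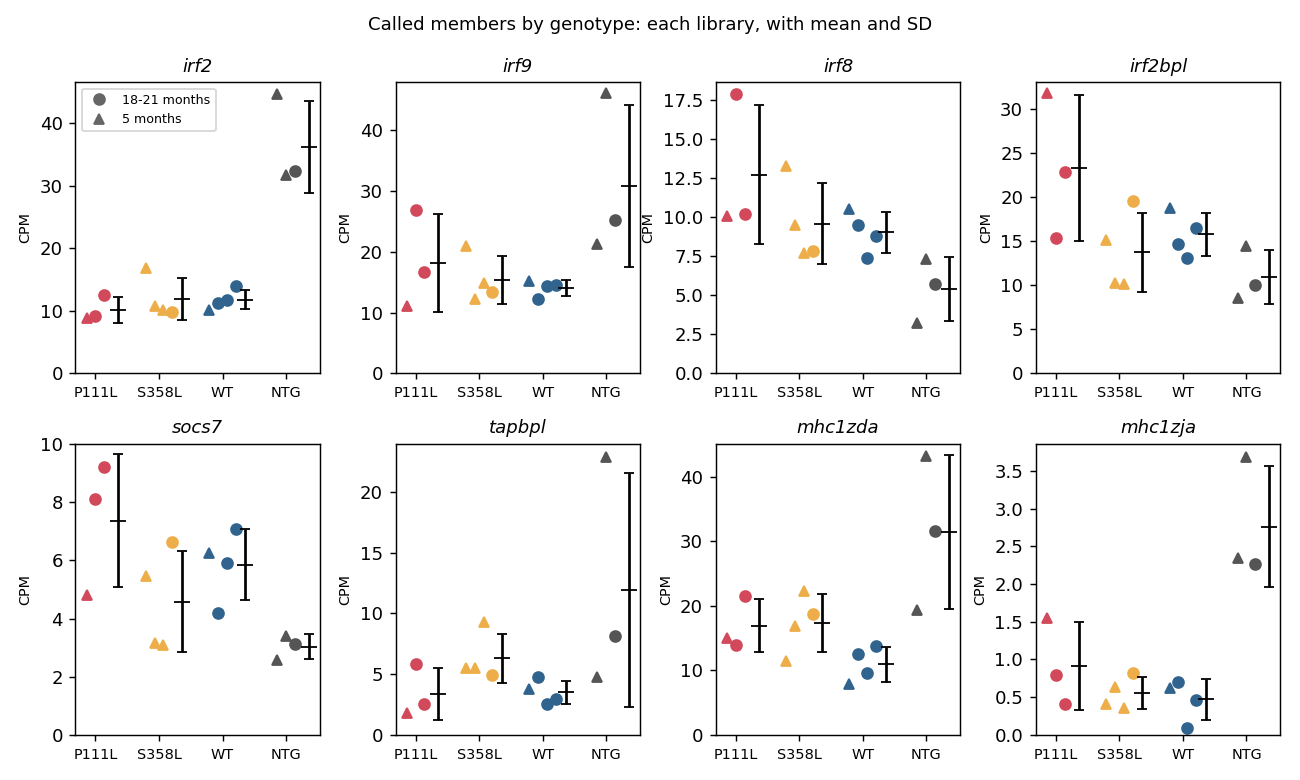
Points are the CPM of 8 called members in each library by genotype, round for 18 to 21 months and triangular for 5 months, with the mean and SD (n = 3 for TMEM43-P111L and NTG, 4 for TMEM43-S358L and TMEM43-WT) beside them and linear axes from 0. For irf2 and mhc1zja no transgenic library reaches an NTG library. Replicate 3 is the highest NTG library for irf9, at 46.0 CPM beside 21.2 and 25.2 CPM. It is also the highest for tapbpl, at 22.9 CPM beside 4.76 and 8.16 CPM.

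The gene irf9, whose product joins STAT2 in the type I interferon response, fell in TMEM43-WT. It had 11.0, 26.8 and 16.6 CPM in TMEM43-P111L, 21.0, 12.2, 14.9 and 13.3 CPM in TMEM43-S358L, 15.2, 12.2, 14.4 and 14.6 CPM in TMEM43-WT, and 21.2, 46.0 and 25.2 CPM in NTG. TMEM43-WT and TMEM43-S358L did not overlap with NTG, though 21.0 CPM in TMEM43-S358L lay near 21.2 CPM, and TMEM43-P111L did overlap. The log2 fold change was -0.77 ± 0.324 in TMEM43-P111L (edgeR, adjusted p = 0.16), -1.01 ± 0.299 in TMEM43-S358L (0.0561) and -1.13 ± 0.30 in TMEM43-WT (0.0301). Without NTG replicate 3 the TMEM43-WT log2 fold change was -0.72 (edgeR, adjusted p = 0.183), and the call was also lost without any 1 of the TMEM43-WT libraries (0.0533 to 0.0745).

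In the other direction irf8, the factor that directs macrophage development, rose in TMEM43-P111L. It had 10.1, 17.9 and 10.2 CPM in TMEM43-P111L, 13.3, 9.49, 7.71 and 7.86 CPM in TMEM43-S358L, 10.5, 9.48, 7.36 and 8.8 CPM in TMEM43-WT, and 3.25, 7.3 and 5.73 CPM in NTG. Every transgenic library stood above every NTG library. The log2 fold change was 1.23 ± 0.323 in TMEM43-P111L (edgeR, adjusted p = 0.0307), 0.82 ± 0.304 in TMEM43-S358L (0.119) and 0.73 ± 0.304 in TMEM43-WT (0.144). Leaving out NTG replicate 2 (0.0919) or 4 (0.0561), or TMEM43-P111L replicate 3 (0.134) or 4 (0.0508), ended this call, as did a fit to TMEM43-P111L and NTG alone (0.10).

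The pan-leukocyte and macrophage marker lists leaned higher than NTG in all 3 lines, and the neutrophil list in TMEM43-S358L and TMEM43-WT. Median log2 fold changes of the pan-leukocyte markers were 0.72 in TMEM43-P111L, 0.35 in TMEM43-S358L and 0.91 in TMEM43-WT. Those of the macrophage markers were 0.59, 0.32 and 0.85 in that order, and those of the neutrophil list -0.67, 0.45 and 1.1. The pan-leukocyte markers (5 genes) summed to 76.3 to 139 CPM in TMEM43-P111L, 84.1 to 112 CPM in TMEM43-S358L and 94.6 to 159 CPM in TMEM43-WT, against 46.1 to 84.1 CPM in NTG. Of these, ptprc (CD45) was called higher in all 3 lines, with log2 fold changes of 1.42, 0.95 and 1.11 in the same order. In TMEM43-WT arpc1b was also called higher (0.87 ± 0.243, edgeR adjusted p = 0.0367), and DESeq2 called coro1a there too. An unadjusted p under 0.05 was reached in edgeR by 3 of the 5 in TMEM43-P111L, 2 in TMEM43-S358L and 5 in TMEM43-WT. The 9 macrophage markers summed to 296 to 903 CPM in TMEM43-P111L, 408 to 535 CPM in TMEM43-S358L and 502 to 849 CPM in TMEM43-WT, against 347 to 412 CPM in NTG, and none of either list was at 0 in every library. Of the 9 macrophage markers edgeR called 0 in each line, with 3, 0 and 8 at an unadjusted p under 0.05 in TMEM43-P111L, TMEM43-S358L and TMEM43-WT, and DESeq2 called 3 in TMEM43-WT (cd74b, marco and mpeg1.1) and 0 in the other lines. Of all tested genes, edgeR called 7.59%, 6.15% and 8.34% in the same order of lines. TMEM43-P111L replicate 2, at 296 CPM, lay below every NTG library for the macrophage sum. The 4 genes of the neutrophil list summed to 2.46 to 6.74 CPM in TMEM43-P111L, 9.93 to 22.3 CPM in TMEM43-S358L and 10.9 to 49.0 CPM in TMEM43-WT, against 10.3 to 15.4 CPM in NTG. Of these, cpa5 fell in TMEM43-P111L (log2 fold change -3.04 ± 0.452, edgeR adjusted p = 0.00188) and mmp9 rose in TMEM43-WT (3.34 ± 0.876, 0.033). Relative to TMEM43-WT, the list's median log2 fold change was -2.19 in TMEM43-P111L and -1.83 in TMEM43-S358L. In each, 3 of the 4 genes had an unadjusted p under 0.05 in edgeR. Since cpa5 may mark another cell type, its fall and the list's medians and sums, lower or higher, cannot be read as neutrophil values in any line. The part of leukocyte number in the level of irf8 was not tested.

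Relative to NTG, irf2bpl and socs7 also rose in TMEM43-P111L. The gene irf2bpl, named for its likeness to IRF2-binding proteins, had 31.8, 15.3 and 22.8 CPM in TMEM43-P111L, against 8.52, 14.4 and 10.0 CPM in NTG (log2 fold change 1.09 ± 0.306, edgeR adjusted p = 0.0417). TMEM43-S358L had 10.1 to 19.5 CPM and TMEM43-WT 13.1 to 18.8 CPM. TMEM43-P111L and NTG did not overlap, though 15.3 CPM lay near 14.4 CPM. The call was lost without TMEM43-P111L replicate 2 (adjusted p = 0.153) or 4 (0.0966), NTG replicate 2 (0.122) or 4 (0.0964), and without TMEM43-WT replicate 4, 5 or 6 (0.0525, 0.0528 and 0.0521), and in a fit to TMEM43-P111L and NTG alone (0.0916).

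For socs7, of the SOCS adaptor family, the levels were 4.8, 8.11 and 9.2 CPM in TMEM43-P111L, 5.47, 3.16, 3.09 and 6.62 CPM in TMEM43-S358L, 6.25, 4.18, 5.93 and 7.08 CPM in TMEM43-WT, and 2.56, 3.4 and 3.14 CPM in NTG. TMEM43-P111L and TMEM43-WT did not overlap with NTG, whereas TMEM43-S358L did. The log2 fold change was 1.28 ± 0.352 in TMEM43-P111L (edgeR, adjusted p = 0.0379), 0.60 ± 0.332 in TMEM43-S358L (0.304) and 0.95 ± 0.334 in TMEM43-WT (0.0866). The TMEM43-P111L call was lost without any 1 NTG library (0.0698 to 0.102), without TMEM43-P111L replicate 3 (0.0977) or 4 (0.141), or without TMEM43-WT replicate 5 (0.0528). It was also lost with age group as a covariate (1.11 ± 0.346, 0.0652) and with only TMEM43-P111L and NTG in the fit (0.0753).

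Of the 7 tested STAT genes edgeR and DESeq2 each called 0 in every comparison, with at most 2 at an unadjusted p under 0.05. Against NTG 6.15 to 8.34% of all tested genes were called, so a count of 0 among 7 genes does not set the STATs apart. The abundant stat3, which carries signals of IL-6 family cytokines, had 51.4 to 70.2 CPM in TMEM43-P111L, 44.8 to 78.5 CPM in TMEM43-S358L, 62.8 to 78.5 CPM in TMEM43-WT and 37.1 to 64.1 CPM in NTG. The level of stat4 was 89.8 to 106 CPM in TMEM43-P111L, 55.5 to 86.4 CPM in TMEM43-S358L, 73.4 to 101 CPM in TMEM43-WT and 50.4 to 119 CPM in NTG.

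Upstream of the STATs edgeR called 0 interferon, receptor, JAK or sensor genes in any of the 7 comparisons. Of all tested genes, 6.15 to 8.34% were called against NTG. Of 6 interferon genes looked for, 4 were found, their sum was 0.494 to 1.83 CPM over the libraries and 1 was tested. Of 5 tested JAK kinases and 7 interferon and related receptors, at most 1 had an unadjusted p under 0.05 in a comparison, and DESeq2 called 0. Of 15 other cytokine receptors and of 14 antiviral sensors and adaptors, at most 3 each did, and DESeq2 called epor and lifrb in TMEM43-WT and nod2 in TMEM43-S358L against NTG, epor in TMEM43-S358L against TMEM43-WT, and il13ra2 by age. Of 12 tested PIAS, CISH and phosphatase genes, ptpn6, which encodes the phosphatase SHP-1 of blood cells, rose in TMEM43-P111L (log2 fold change 1.66 ± 0.302, edgeR adjusted p = 0.00576) and in TMEM43-WT (1.03 ± 0.285, 0.0358).

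The RNA sensors stood low and the adaptor mavs higher. The sensor gene dhx58, for the RIG-I-like protein LGP2, had 1.27, 1.03 and 2.31 CPM in TMEM43-P111L, 3.42, 1.04, 0.941 and 0.662 CPM in TMEM43-S358L, 0.227, 0.938, 2.35 and 1.76 CPM in TMEM43-WT, and 3.25, 3.16 and 2.38 CPM in NTG. TMEM43-P111L and TMEM43-WT lay below NTG without overlap and TMEM43-S358L replicate 1 above it, with edgeR adjusted p of 0.434 in TMEM43-P111L, 0.387 in TMEM43-S358L and 0.273 in TMEM43-WT. The gene ifih1, for the sensor MDA5, had 1.86 to 4.03 CPM in TMEM43-P111L, 1.86 to 2.72 CPM in TMEM43-S358L, 1.59 to 4.28 CPM in TMEM43-WT and 2.88 to 5.02 CPM in NTG, and mavs had 18.0 to 33.4, 15.4 to 16.9, 13.4 to 25.3 and 18.5 to 22.6 CPM in the same groups. RIG-I itself, ddx58, had at most 0.493 CPM and was not tested.

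Interferon-stimulated genes varied widely between single libraries. Of the 15 tested genes grouped under that name, with isg20l2 among them by name only, edgeR called 0 in any of the 7 comparisons. With 6.15 to 8.34% of all tested genes called against NTG, a count of 0 of 15 does not set these genes apart. DESeq2 called isg20 in TMEM43-S358L against NTG (adjusted p = 0.00761) and mxb by age (0.0458). For an unadjusted p under 0.05 in edgeR there were 0 of them in TMEM43-P111L, 2 in TMEM43-S358L and 1 in TMEM43-WT against NTG, and 2 or 3 in each other comparison. The ubiquitin-like modifier isg15 had 5.16, 10.1 and 21.5 CPM in TMEM43-P111L, 56.3, 3.76, 8.29 and 6.85 CPM in TMEM43-S358L, 3.24, 4.18, 8.1 and 5.45 CPM in TMEM43-WT, and 6.46, 2.05 and 3.77 CPM in NTG. TMEM43-S358L replicate 1 held 1368 reads of it, where the other libraries of the line held 101 to 185, and the log2 fold change of the line against NTG of 2.2 ± 0.891 did not pass (edgeR, adjusted p = 0.165). The 5 erythrocyte markers also peaked in that library, at 6470 CPM in sum beside 834 to 3580 CPM in the others, and their part in these values was not tested.

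The same library and TMEM43-P111L replicate 4 held most rsad2 (viperin, an antiviral enzyme). Its levels were 1.71, 1.57 and 9.58 CPM in TMEM43-P111L, 12.0, 0.595, 0.941 and 3.07 CPM in TMEM43-S358L, 0.682, 1.08, 1.84 and 1.51 CPM in TMEM43-WT, and 6.32, 1.3 and 3.51 CPM in NTG. All groups overlapped. The exonuclease gene isg20 had 15.2, 24.7 and 22.8 CPM in TMEM43-P111L, 51.7, 21.4, 30.8 and 19.7 CPM in TMEM43-S358L, 26.0, 22.7, 24.3 and 22.1 CPM in TMEM43-WT, and 5.45, 7.58 and 21.0 CPM in NTG. Its log2 fold change in TMEM43-S358L was 1.44 ± 0.418 (edgeR, adjusted p = 0.0537), and isg20 was named after its values were seen.

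The antiviral GTPase genes mxa and mxb lie side by side on chromosome 1. For mxa the levels were 1.51, 4.92 and 5.65 CPM in TMEM43-P111L, 4.61, 0.818, 1.97 and 1.95 CPM in TMEM43-S358L, 0.17, 1.03, 2.35 and 1.17 CPM in TMEM43-WT, and 4.49, 0 and 3.51 CPM in NTG. NTG replicate 3 held no mxa read, where the other NTG libraries held 98 and 84. For mxb they were 0.0793, 1.28 and 2.83 CPM in TMEM43-P111L, 0.112 to 0.389 CPM in TMEM43-S358L, 0.0568 to 0.644 CPM in TMEM43-WT and 0.916, 0.233 and 1.26 CPM in NTG. The gene mxc reached at most 0.884 CPM. Reads of the mx genes were fractional in 6 or 7 libraries for these 3 genes, so reads shared among copies may have been split.

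The lysosomal reductase gene ifi30 and the membrane protein gene ifitm1 were the most abundant of this group per kilobase (28.8 and 62.8 CPM per kilobase). The level of ifi30 was 9.28, 35.9 and 23.7 CPM in TMEM43-P111L, 23.3 to 34.0 CPM in TMEM43-S358L, 21.3 to 37.1 CPM in TMEM43-WT and 18.3, 50.7 and 47.3 CPM in NTG. That of ifitm1 was 12.6, 50.8 and 22.3 CPM in TMEM43-P111L, 21.7 to 77.8 CPM in TMEM43-S358L, 38.5 to 83.9 CPM in TMEM43-WT and 26.7, 20.8 and 48.4 CPM in NTG. TMEM43-P111L replicate 2 was the lowest library for both. Of 20 further interferon-stimulated genes outside the symbol rule, 1 rose and 1 fell in TMEM43-S358L, the chemokine gene cxcl20 (log2 fold change 2.11 ± 0.548, edgeR adjusted p = 0.0352) and parp12a (-1.05 ± 0.288, 0.0406). Of all tested genes, 2.68% rose and 3.48% fell in that line. In TMEM43-P111L and TMEM43-WT edgeR called 0 of the 20, where 7.59% and 8.34% of all tested genes were called. There 4 and 6 of the 20 had an unadjusted p under 0.05, and DESeq2 called 2 and 4.

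**Figure D5:**
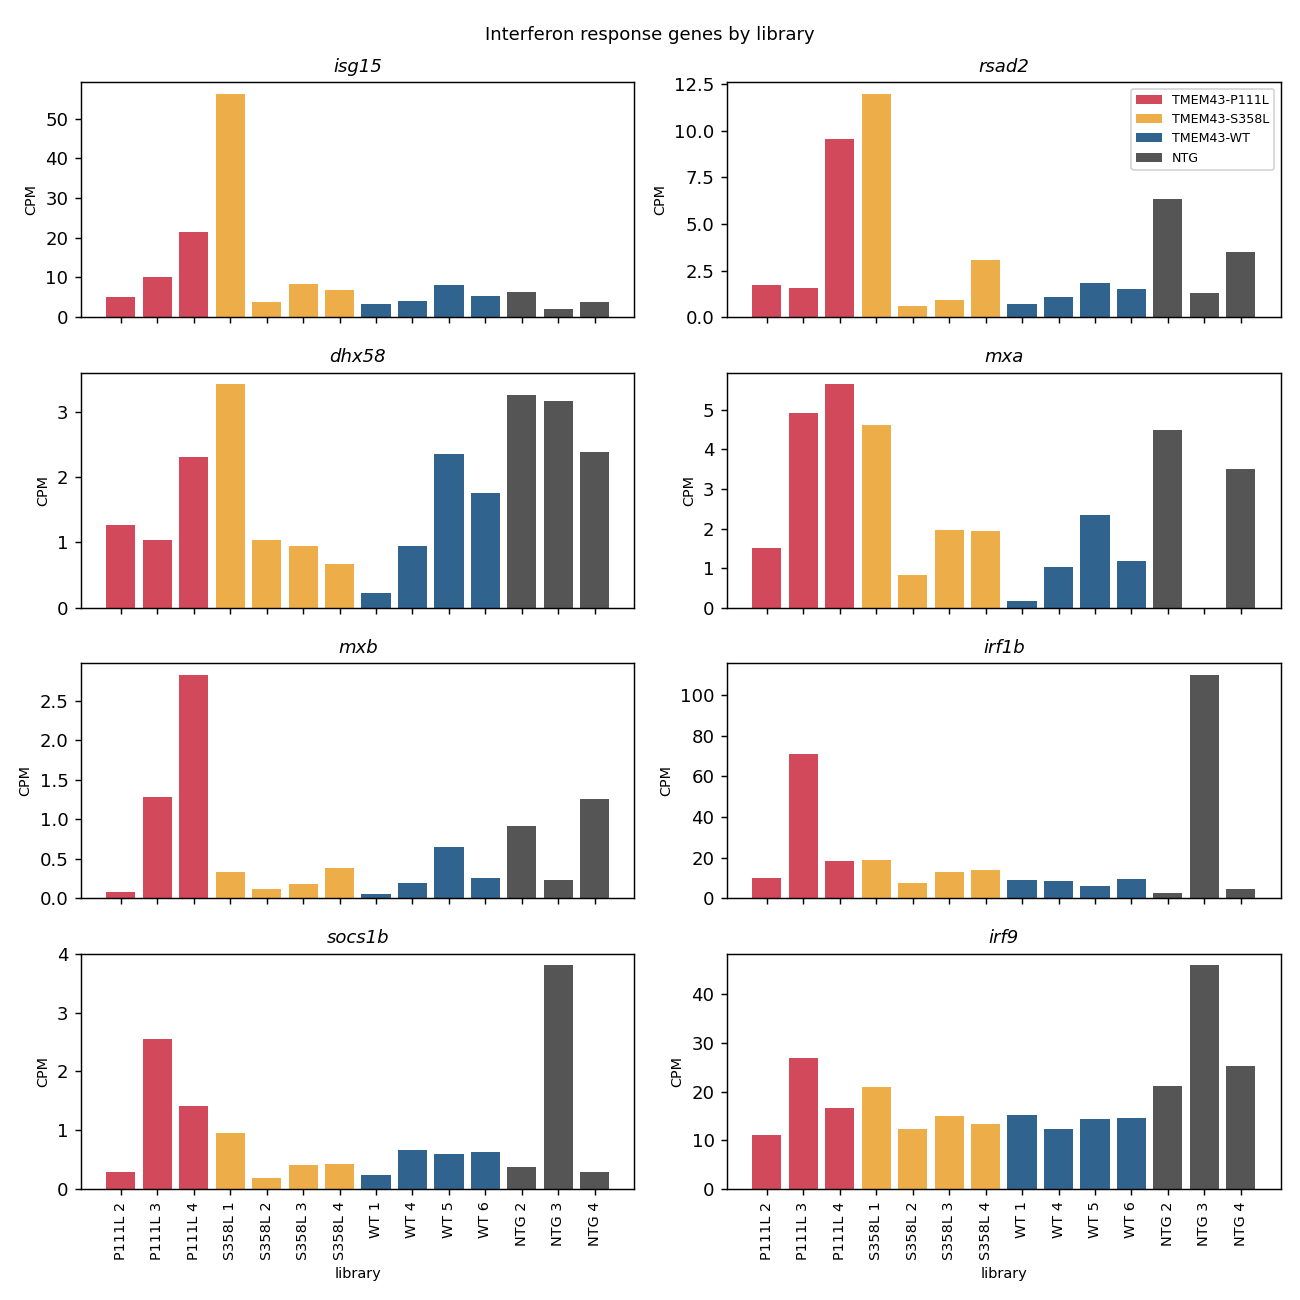
Bars give the CPM of isg15, rsad2, dhx58, mxa, mxb, irf1b, socs1b and irf9 in each of 14 libraries, coloured by genotype, with linear axes from 0. TMEM43-S358L replicate 1 is high for isg15 (56.3 CPM) and rsad2 (12.0 CPM), and NTG replicate 3 is high for irf1b (110 CPM), socs1b (3.81 CPM) and irf9 (46.0 CPM) and has 0 CPM of mxa.

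NTG replicate 3 had the highest level of 15 of the 69 tested members (21.7%), beside 13.3% of all tested genes. These were the Z genes mhc1zca, mhc1zda, mhc1zea and mhc1zja, mhc1laa, tap1, tapbp.1, tapbpl, irf1b, irf9, irf2bp2a, ifi30, mxc, socs1b and socs2. The interferon-gamma response gene irf1b was spread widely, with 10.0, 70.9 and 18.5 CPM in TMEM43-P111L, 18.8, 7.7, 12.9 and 14.1 CPM in TMEM43-S358L, 9.15, 8.73, 5.98 and 9.35 CPM in TMEM43-WT, and 2.75, 110 and 4.69 CPM in NTG. The other NTG libraries were the lowest of all 14 for this gene. In the same library isg15, mxa and mxe were the lowest of the NTG group, at 2.05, 0 and 0.465 CPM, so its interferon genes did not move together.

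The other library peaks were smaller in number. TMEM43-S358L replicate 1 was highest for 8 members (11.6%, beside 7.54% of all genes): isg15, isg20, isg20l2, rsad2, dhx58, ifit16, irf10 and irf4a. TMEM43-P111L replicate 4 was highest for 7 (10.1%, beside 4.51%): b2m, irf3, irf7, mxa, mxb, mxe and socs7. For irf7, the factor that amplifies the interferon response, the range was 2.7 to 6.17 CPM in TMEM43-P111L, 3.14 to 5.41 CPM in TMEM43-S358L, 3.07 to 6.15 CPM in TMEM43-WT and 2.61 to 5.4 CPM in NTG.

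Among the suppressors of cytokine signalling, socs3a, induced by STAT3, had 105, 85.3 and 50.4 CPM in TMEM43-P111L, 35.5, 183, 311 and 148 CPM in TMEM43-S358L, 459, 280, 183 and 138 CPM in TMEM43-WT, and 86.9, 277 and 379 CPM in NTG. TMEM43-P111L lay below TMEM43-WT without overlap (log2 fold change -1.72 ± 0.673, edgeR adjusted p = 0.372) and did not differ past the threshold from NTG (-1.62 ± 0.70, 0.181). Its paralog socs3b had 37.0 to 53.2 CPM in TMEM43-P111L, 25.3 to 39.9 CPM in TMEM43-S358L, 29.3 to 113 CPM in TMEM43-WT and 24.8 to 42.5 CPM in NTG. TMEM43-WT replicate 1 was the highest library for both socs3 genes.

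For socs1a, an inhibitor of JAK kinases, the range was 2.46 to 4.38 CPM in TMEM43-P111L, 2.9 to 5.1 CPM in TMEM43-S358L, 3.02 to 6.19 CPM in TMEM43-WT and 3.3 to 8.12 CPM in NTG. Of 12 tested SOCS rows edgeR called 1, socs7 given above, in TMEM43-P111L against NTG (8.33%, beside 7.59% of all tested genes). In TMEM43-S358L and TMEM43-WT against NTG it called 0, where 6.15% and 8.34% of all tested genes were called. These counts do not set the SOCS genes apart. Of the IRF2-binding proteins, irf2bp2b had 143 to 180 CPM in TMEM43-P111L, 131 to 197 CPM in TMEM43-S358L, 121 to 193 CPM in TMEM43-WT and 139 to 233 CPM in NTG, and irf2bp2a had 97.3 to 124, 71.1 to 116, 75.9 to 117 and 69.7 to 126 CPM. Neither was called in any comparison.

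By age, edgeR called 0 of 69 members between libraries of 18 to 21 months and of 5 months with genotype as a covariate, where 0.969% of all genes were called. Of the members, 10 had an unadjusted p under 0.05, 9 of them higher at 18 to 21 months. DESeq2 called 4, all higher: mhc1uka, mhc1uba, b2m and mxb. The share of all genes above is edgeR's, and none is given for DESeq2. Age was not balanced over the genotypes. The light chain b2m had 617, 704 and 983 CPM (lowest, median and highest of 7) at 18 to 21 months, against 298, 395 and 575 CPM at 5 months. The age groups did not overlap, and the log2 difference was 0.74 ± 0.178 (edgeR, adjusted p = 0.0635, DESeq2 adjusted p = 0.00857).

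The class I gene mhc1uka did not overlap between ages either, with 41.4, 55.2 and 70.0 CPM at 18 to 21 months, against 3.25, 29.0 and 34.1 CPM at 5 months (lowest, median and highest of 7). Its log2 difference was 1.46 ± 0.338 (edgeR, adjusted p = 0.0635), and that of mhc1uba was 1.46 ± 0.38 (0.10). In each genotype the older libraries were higher for mhc1uka: 41.4 and 44.7 CPM against 3.25 CPM in TMEM43-P111L, 55.2 CPM against 23.5 to 32.9 CPM in TMEM43-S358L, 51.3 to 70.0 CPM against 31.5 CPM in TMEM43-WT, and 60.3 CPM against 29.0 and 34.1 CPM in NTG. For b2m the older libraries were also the higher ones within each genotype: 959 and 983 CPM against 373 CPM in TMEM43-P111L, 704 CPM against 298 to 489 CPM in TMEM43-S358L, 633 to 752 CPM against 505 CPM in TMEM43-WT, and 617 CPM against 395 and 575 CPM in NTG. Of the marker lists, the 5 erythrocyte genes had a median log2 difference of -0.86 by age, with 2 at an unadjusted p under 0.05 in edgeR, the 5 pan-leukocyte genes 0.07 with 1 (ptprc, 0.50 ± 0.165, adjusted p = 0.193), the 9 macrophage genes 0.19 with 0 and the 4 neutrophil genes -0.40 with 0. Both edgeR and DESeq2 called 0 of these genes by age, and their part in the values above was not tested.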

How the data were processed

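RNA-seq of pooled ventricles was deposited as 1 table of expected counts per gene for 14 libraries, in which the authors had applied no scaling for depth or gene length. The submitters' processing notes name Cutadapt 2.5, STAR 2.7.2b, featureCounts 1.6.4 and the build GRCz11, and coordinates are those of the table. How the strand and reads with several places were treated is not given in the sources used here. The 4 annotation columns were not used as samples. Rounding to whole reads came first, then edgeR 4.0.16 (R 4.3.3) was run: TMM, filterByExpr by genotype, and the robust quasi-likelihood test over all 14 libraries with 4 genotypes as 1 factor (genotype as a covariate for age). Depth was 20621770 to 32418475 reads, which limits precision for genes under about 1 CPM. Counting intervals are at 95%, Wilson for shares and exact for ratios, and a floor of 3 reads per library stands for a count of 0.

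The members and gene lists were chosen with earlier results of these data known. Named are members called in any of 7 comparisons, members with at least 5 CPM in 1 library and at most 0.1 CPM in another, the 2 most abundant tested members per kilobase in each role, and canonical interferon-response genes with socs1a, socs3a and socs3b. Outside this rule mhc1uba, isg20, psmb8a and genes named for a single value were chosen after their values were seen. Alternatives were DESeq2 1.42.0, RLE size factors, no filter or at least 1 CPM in 3 libraries, a minimum absolute log2 fold change of 0.5, an age covariate, fits to the compared groups alone, a block for the replicate number, and omission of each library. Chosen after seeing the data were 5-month libraries only, omission of the 2 libraries of lowest TMM factor (TMEM43-WT replicate 1 and TMEM43-S358L replicate 3), and genes with whole counts only (tolerance 1e-09). The scripts were tested on simulated data. A search of promoters for motifs was not run, and some members are not reported here.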

Additional observations from a re-analysis of the deposited data

Results flagged for a closer look

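In the 4-library groups (TMEM43-S358L and TMEM43-WT), 69 sets of values of named genes were examined for a library far from the other 3. There were 5 such sets among the 69, where chance gives about 1 in 20, so their number is near that rate. Whether that rate holds for CPM values was not tested. All 5 sets were in TMEM43-S358L, and in each the library set apart was the highest of 4. Replicate 1 held 3 of them: isg15 at 56.3 CPM beside 3.76 to 8.29 CPM in the other TMEM43-S358L libraries, dhx58 at 3.42 CPM beside 0.662 to 1.04 CPM, and irf2 at 16.9 CPM beside 9.77 to 10.8 CPM. In replicate 4, socs1a was at 5.1 CPM beside 2.9 to 2.92 CPM. In replicate 3, tapbpl was at 9.28 CPM beside 4.9 to 5.52 CPM.

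The level of mhc1lda differed between lines, by a log2 difference of -7.17 between TMEM43-P111L and TMEM43-WT and of -8.89 between TMEM43-S358L and TMEM43-WT. Each passed the threshold in edgeR's direct comparison of the lines, though the gene was tested only through its reads in TMEM43-WT. NTG is neither group in that comparison, but its libraries were part of the fit over all 14 libraries. Both values depend on the prior count, since the lines with a variant held 1 and 0 reads. NTG replicate 3 also held 0 reads, and the variant cannot be told apart from the insertion and the founder's background.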

How the results depend on the processing

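Counts of called members were within 1.5 times of those reported except as follows. With DESeq2 they were 5 in TMEM43-S358L against NTG, 2 in TMEM43-S358L against TMEM43-WT and 4 by age. With only the groups compared they were 1 in TMEM43-P111L against NTG and 2 in TMEM43-S358L against TMEM43-WT, with an age covariate 2 in the last, and by age 1 without a filter or with genotype left out. Chosen after seeing the data, 5-month libraries only gave 0 in TMEM43-S358L against NTG (irf2 -1.60, edgeR adjusted p = 0.0657), and leaving out the 2 libraries of lowest TMM factor gave 3 in TMEM43-WT against NTG. Genes with whole counts gave 1 in TMEM43-S358L and 3 in TMEM43-WT against NTG and 0 in each variant line against TMEM43-WT, since fractional genes such as mhc1lda leave the table. With an age covariate the tapbpl calls and the socs7 call were lost, though the counts stayed within that range. Without the 2 libraries of lowest TMM factor the calls of irf9 (edgeR adjusted p = 0.0626) and tapbpl in TMEM43-WT, tapbpl in TMEM43-P111L and mhc1zja in TMEM43-S358L were lost. The other causes were not tested. No direction reversed.

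The r of deviations from the group means was -0.228 to 0.264 (median 0.0633) over 13 same-numbered pairs of libraries. Over 60 pairs of unlike number it was -0.297 to 0.226 (median 0.00789). The ranges overlapped, and whether replicate numbers mark shared batches was not tested further. With the replicate block, called members were 3 in TMEM43-P111L and 0 in TMEM43-WT against NTG, and 0 in each variant line against TMEM43-WT, and irf2 in TMEM43-WT had an edgeR adjusted p of 0.0509.

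Leaving out each library gave 1 to 6 called members in TMEM43-P111L, 2 to 5 in TMEM43-S358L and 2 to 6 in TMEM43-WT against NTG, 0 to 1 in TMEM43-P111L and 1 to 2 in TMEM43-S358L against TMEM43-WT, 0 to 0 between the variant lines, and 0 to 1 by age. Genes near 1 CPM are limited by depth.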
